A study of Mus musculus with 11 samples.

Results

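The methionine cycle and transsulfuration genes described here are Mat1a, Mat2a, Gnmt, Gamt, Ahcy, Bhmt, Cbs, Cth, Cdo1 and Gss. They were chosen by name, for their place on the route from methionine through cysteine to glutathione, and each was found through the RefSeq accession that the array gives for its probes. All 10 were measured, with 16 probes between them, among 22283 genes and unnamed transcripts tested. All 10 were above background on each of the 11 arrays.

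In liver, methionine is turned into S-adenosylmethionine (SAM), the methyl donor of the cell, and the methyl transfer leaves S-adenosylhomocysteine and then homocysteine. Homocysteine is either methylated back to methionine or condensed with serine and passed down the transsulfuration route to cysteine. Cysteine is the limiting amino acid of glutathione, the main thiol antioxidant of hepatocytes, and is also broken down to taurine and sulfate. The liver form of methionine adenosyltransferase is encoded by Mat1a, and the form of dividing and extrahepatic cells by Mat2a.

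The series measured liver RNA from mouse models of hepatoblastoma, a childhood liver cancer, on 1-colour Agilent arrays. There were 4 wild-type (WT) arrays, 3 of β-catΔEx3 livers and 4 of β-catΔEx3:Myc livers. Deletion of exon 3 removes the phosphorylation sites that mark β-catenin for destruction, so the mutant protein is stable. In the β-catΔEx3:Myc livers, Myc is combined with that mutant, so β-catΔEx3 is shared by both mutant groups. All mice were untreated males of a hybrid strain, mostly B6SJL with a small share of 129S6, aged 22 to 40 days. Exact ages are given for 3 arrays only, at 31 days for WT replicate 4, 30 days for β-catΔEx3 replicate 3 and 29 days for β-catΔEx3:Myc replicate 4. The promoter or Cre that drives the alleles is not given in the sources used here. The design text speaks of tumor-bearing livers without saying whether tumor or neighbouring tissue was taken, and names the last group by Myc alone. The labels give each array its own number but do not state that each is a separate mouse, so p-values measure the spread between arrays.

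Levels are given as log2 of the processed signal over the array's 75th percentile, which was 227.0 to 354.3 signal units, and 49.0 to 53.4% of spots were well above background. Probes differ in how brightly they bind, so a level is compared between arrays and not between genes. A gene is called higher or lower where limma's adjusted p is below 0.05. The 2 comparisons with WT share the same WT arrays and are not independent of each other. The arrays lie on 4 slides: WT replicates 1 to 3 together on slide 1, the first pair of each mutant group on slide 2, β-catΔEx3:Myc replicate 3 on slide 3, and the last array of every group on slide 4. Values with slide as a block therefore compare the mutants with WT replicate 4 alone, and they are given beside the named genes whose call the block ended and beside the count of each list. Ctnnb1, which encodes β-catenin, differed from WT by -0.17 in each mutant group (adjusted p = 0.416 and 0.378), and its probe level does not check the exon deletion. Myc was 10.3-fold higher in β-catΔEx3:Myc than in WT (adjusted p = 0.00277), and its difference of 1.50 on the log2 scale between β-catΔEx3 and WT was not called (adjusted p = 0.132). Without WT replicate 1 they were 3.97 (adjusted p = 0.000939) and 2.10 (adjusted p = 0.0261) on the log2 scale.

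Of the 10 genes, 5 were called higher and 2 lower in β-catΔEx3 than in WT, where 21.6% of all items tested were called higher and 15.5% lower. In β-catΔEx3:Myc, 7 were higher and 2 lower than in WT, against 25.3% and 17.1% of all items. The median log2 fold change of the 10 genes was 0.68 in β-catΔEx3 and 0.98 in β-catΔEx3:Myc, beside 0.10 and 0.14 over all items. Mutant and WT arrays did not overlap for 8 genes in β-catΔEx3 (43.7% of all items) and for 9 in β-catΔEx3:Myc (42.4% of all items). With slide as a block, 1 gene remained called in β-catΔEx3 (Mat2a) and 2 in β-catΔEx3:Myc (Mat2a and Cth). The shares over all items are from the fit without the block. The share called with the block is not given here. Counts with the block, also those of the lists below, therefore cannot be set against all items. Scaling to probes detected on every array moved the median over all items from 0.098 to -0.085 in β-catΔEx3 and from 0.137 to -0.012 in β-catΔEx3:Myc. No gene among the 10 that was called against WT changed direction under any alternative run.

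**Figure D1:**
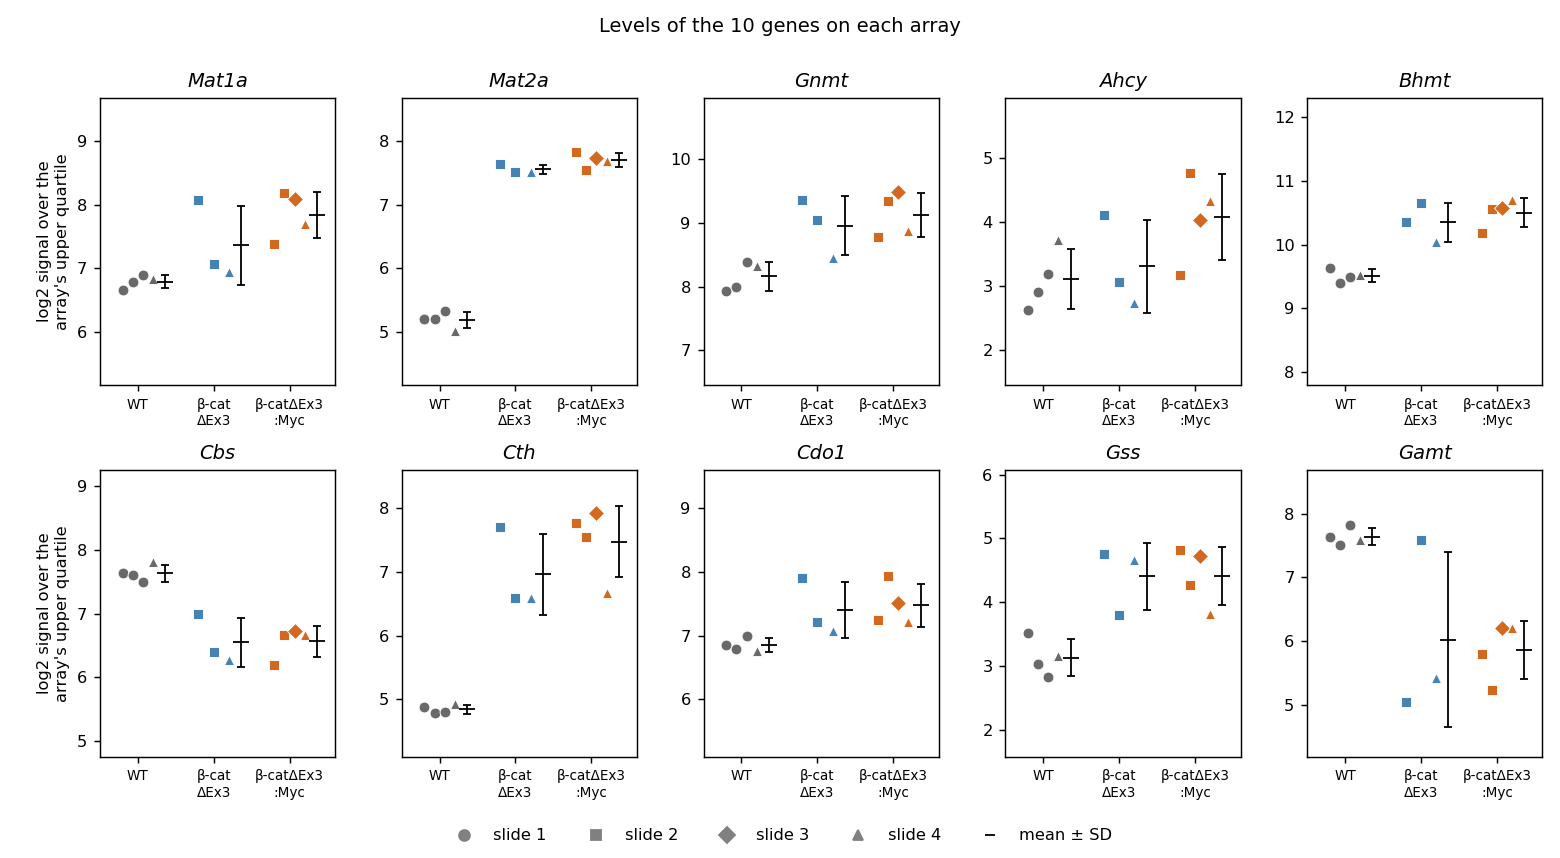
Level of each gene on every array (y axis, log2 signal over the array's upper quartile, each panel spanning the same range) by group, with symbols for the slide and bars for the mean ± SD. Mat2a and Cth of all 7 mutant arrays lie well above the 4 WT arrays, Cbs lies below them, and β-catΔEx3 replicate 2 lies at the WT level for Gamt.

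Several lists of cell type markers, but not all, also differed between mutant and WT arrays. Over all items, 21.6% were called higher and 15.5% lower in β-catΔEx3, and 25.3% and 17.1% in β-catΔEx3:Myc. The 7 measured macrophage markers were all called lower in both mutant groups, with a summed signal of 214 to 333 times the array's upper quartile in WT, 18.3 to 53.1 in β-catΔEx3 and 16.1 to 59.6 in β-catΔEx3:Myc. Of 8 endothelial markers, 5 were lower in β-catΔEx3 and 6 in β-catΔEx3:Myc, with sums of 111 to 132 in WT, 53.5 to 69.7 and 27.3 to 43.7. Of 8 stellate cell markers, 2 and 5 were lower, with sums of 85.9 to 158 in WT, 77.4 to 79.4 in β-catΔEx3 and 29.6 to 56.8 in β-catΔEx3:Myc. Erythroid markers, 6 measured, summed to 513 to 1105, 41.1 to 154 and 34.2 to 877 in the same order, with 3 lower in β-catΔEx3 and 1 higher and 1 lower in β-catΔEx3:Myc. The 8 neutrophil markers summed to 7.71 to 12.2, 5.58 to 13.7 and 8.68 to 83.1, with 1 and 2 called higher, no more than the share over all items. Of 5 measured lymphocyte markers, 3 were lower in each mutant group, and 1 was higher in β-catΔEx3:Myc. Of 7 biliary markers, 1 was higher in β-catΔEx3 and 1 lower in β-catΔEx3:Myc. None of 4 pancreatic acinar markers was called in either group. Mature hepatocyte markers, all 11 measured above background on every array, summed to 7518 to 9389 in WT, 5163 to 6266 in β-catΔEx3 and 4618 to 6801 in β-catΔEx3:Myc. Of these 11, 5 were called lower in β-catΔEx3, and 4 lower and 1 higher in β-catΔEx3:Myc. The sum over 10 perivenous hepatocyte markers, the zone around the central vein, was 1430 to 2196 in WT, 2264 to 3355 in β-catΔEx3 and 2125 to 3064 in β-catΔEx3:Myc, with 8 called higher and 1 lower in each mutant group. In bulk liver, fewer cells of a type and less RNA per cell cannot be told apart, and the part of these shifts in the levels of the 10 genes was not tested.

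Upstream sequence was used for 7 of the 10 genes (all but Mat1a, Cth and Cdo1), as the 250 bases before the RefSeq start on GRCm38.p6. The windows of Mat2a, which rose most among those 7, and of Cbs and Gamt, the members that were lower, are shown 5′ to 3′. All 3 genes lie on the minus strand, at chr6:72439557-72439806, chr17:31637206-31637455 and chr10:80261013-80261262. Capitals mark the only motif found.
Mat2a: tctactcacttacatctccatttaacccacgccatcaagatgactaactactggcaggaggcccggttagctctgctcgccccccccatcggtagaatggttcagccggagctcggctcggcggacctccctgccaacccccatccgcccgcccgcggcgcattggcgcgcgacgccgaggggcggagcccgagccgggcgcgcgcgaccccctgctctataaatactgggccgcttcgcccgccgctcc
Cbs: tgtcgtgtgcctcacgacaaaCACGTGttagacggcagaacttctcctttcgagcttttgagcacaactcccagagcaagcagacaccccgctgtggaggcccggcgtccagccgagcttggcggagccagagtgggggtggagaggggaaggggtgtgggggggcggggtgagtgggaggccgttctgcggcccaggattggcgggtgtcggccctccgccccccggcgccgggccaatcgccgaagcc
Gamt: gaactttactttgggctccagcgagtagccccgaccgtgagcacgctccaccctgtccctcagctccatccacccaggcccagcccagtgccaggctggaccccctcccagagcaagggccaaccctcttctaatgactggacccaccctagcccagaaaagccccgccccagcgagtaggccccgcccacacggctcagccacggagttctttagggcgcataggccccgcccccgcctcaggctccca
These windows are 67.6%, 68.0% and 66.8% G and C. Both strands of the 7 windows were searched for an antioxidant response element core (TGACNNNGC, where N is any base), a Tcf motif (CTTTGAT), the E-box that Myc and other factors bind (CACGTG) and a C/EBP-Atf element (TGATGNAA). The E-box in the Cbs window, 229 to 224 bases before the start, was the only match. Over all 32851 promoter windows of that length, 10.2% hold the antioxidant core, 3.21% the Tcf motif, 6.02% the E-box and 3.45% the C/EBP-Atf element. A match is a description of the letters and not of a bound site.

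Of the SAM synthesis genes, Mat2a was called higher in both mutant groups and Mat1a in β-catΔEx3:Myc only, a difference between the groups that was not called itself. Mat2a, the catalytic subunit of the extrahepatic enzyme, was at 5.20, 5.20, 5.33 and 5.02 in WT replicates 1 to 4. It was at 7.64, 7.51 and 7.52 in β-catΔEx3 and at 7.82, 7.55, 7.73 and 7.69 in β-catΔEx3:Myc. The groups were far apart and tight, with an SD of 0.07 to 0.13 in each. Mat2a was thus 5.18-fold higher in β-catΔEx3 (log2 fold change 2.37 ± 0.13 SE, adjusted p = 2.98e-06) and 5.70-fold higher in β-catΔEx3:Myc (2.51 ± 0.12, adjusted p = 8.62e-07). It is the member whose calls against WT held in both mutant groups with slide as a block, at 2.52 (adjusted p = 0.0035) and 2.65 (adjusted p = 0.00257). Its other probe gave 2.48 and 2.68.

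Mat1a, the liver enzyme, was at 6.66, 6.79, 6.90 and 6.83 in WT, at 8.07, 7.07 and 6.95 in β-catΔEx3 and at 7.39, 8.18, 8.09 and 7.69 in β-catΔEx3:Myc. Every mutant array lay above every WT array, but β-catΔEx3 replicates 2 and 3 lay only just above the highest one. Mat1a was 2.06-fold higher in β-catΔEx3:Myc (1.04 ± 0.26, adjusted p = 0.00843), a call that the slide block ended (0.69, adjusted p = 0.405). The difference of 0.57 ± 0.28 in β-catΔEx3 was not called (adjusted p = 0.138). The log2 difference between the Mat2a and Mat1a signals of an array, whose offset depends on the probes, ran from -1.81 to -1.47 in WT, from -0.43 to 0.57 in β-catΔEx3 and from -0.63 to 0.43 in β-catΔEx3:Myc.

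The methyl users in the list moved in opposite directions. Gnmt, which methylates glycine to sarcosine and disposes of excess SAM, was at 7.93, 7.99, 8.39 and 8.33 in WT, at 9.36, 9.05 and 8.45 in β-catΔEx3 and at 8.78, 9.35, 9.48 and 8.88 in β-catΔEx3:Myc. The mutant arrays did not overlap the WT arrays, although β-catΔEx3 replicate 3 was only just above WT replicate 3. Gnmt was 1.95-fold higher in β-catΔEx3:Myc (0.97 ± 0.24, adjusted p = 0.00757) and 1.74-fold higher in β-catΔEx3 (0.80 ± 0.25, adjusted p = 0.0313). The slide block ended both calls (0.37, adjusted p = 0.551, and 0.32, adjusted p = 0.622). In β-catΔEx3 the adjusted p was also above the threshold without the first WT array (0.0751) or the second (0.0763), and without replicate 1 (0.13) or 2 (0.0781) of β-catΔEx3, and under 4 other settings of scaling or filter (0.0543 to 0.0671).

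Gamt, which uses SAM to finish creatine, fell. It was at 7.63, 7.51, 7.82 and 7.59 in WT and at 5.80, 5.24, 6.20 and 6.21 in β-catΔEx3:Myc, with no overlap. In β-catΔEx3 it was at 5.05 and 5.42 in replicates 1 and 3 but at 7.59 in replicate 2, which is the WT level. Gamt was 3.42-fold lower in β-catΔEx3:Myc (-1.78 ± 0.47, adjusted p = 0.0117; -1.90 and adjusted p = 0.261 once blocked by slide). In β-catΔEx3 it was 3.06-fold lower (-1.61 ± 0.51, adjusted p = 0.0296; -1.63 and adjusted p = 0.337 with the block). Without β-catΔEx3 replicate 2 the latter difference was -2.40 (adjusted p = 0.000358), and without replicate 1 it was -1.13 (adjusted p = 0.126). The call was also lost without replicate 3 (adjusted p = 0.108) and without WT replicate 1, 2, 3 or 4 (0.0566, 0.054, 0.0647 and 0.0519), with only those groups in the fit (0.0573) and with no filter on background (0.0503). Its other probe gave -1.61 and -1.81.

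Ahcy, which splits S-adenosylhomocysteine into homocysteine and adenosine, was not called. It was at 2.62, 2.90, 3.19 and 3.72 in WT, at 4.12, 3.07 and 2.73 in β-catΔEx3 and at 3.17, 4.77, 4.04 and 4.33 in β-catΔEx3:Myc, so both mutant groups overlapped WT. The difference was 0.20 ± 0.43 in β-catΔEx3 (adjusted p = 0.747) and 0.97 ± 0.40 in β-catΔEx3:Myc (adjusted p = 0.0715). The latter passed the threshold without WT replicate 4 (adjusted p = 0.0471), β-catΔEx3:Myc replicate 1 (0.0221) or β-catΔEx3 replicate 1 (0.0478).

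Bhmt, which returns homocysteine to methionine with a methyl group of betaine, was higher. It was at 9.63, 9.39, 9.49 and 9.53 in WT, at 10.35, 10.65 and 10.04 in β-catΔEx3 and at 10.18, 10.55, 10.57 and 10.70 in β-catΔEx3:Myc. All 7 mutant arrays lay above all 4 WT arrays. The rise was 1.79-fold in β-catΔEx3 (0.84 ± 0.18, adjusted p = 0.005; 0.77 and adjusted p = 0.194 once blocked by slide) and 1.98-fold in β-catΔEx3:Myc (0.99 ± 0.17, adjusted p = 0.0011; 0.90 and adjusted p = 0.139 with the block). Its 3 probes agreed in direction but not in size: the second gave 1.34 and 1.61, and the third gave 0.40 and 0.32, which were not called (adjusted p over probes = 0.0712 and 0.0976).

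The transsulfuration enzymes moved in opposite directions. Cbs, which commits homocysteine to the route by joining it to serine, was at 7.64, 7.60, 7.49 and 7.81 in WT. It was at 6.99, 6.40 and 6.27 in β-catΔEx3 and at 6.20, 6.67, 6.73 and 6.67 in β-catΔEx3:Myc, below WT on every mutant array. Cbs was 2.12-fold lower in β-catΔEx3 (-1.09 ± 0.20, adjusted p = 0.00249) and 2.10-fold lower in β-catΔEx3:Myc (-1.07 ± 0.19, adjusted p = 0.00137). With slide as a block the differences were larger, at -1.33 and -1.37, but were not called (adjusted p = 0.0703 and 0.0638).

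Cth, which releases cysteine from cystathionine, was at 4.88, 4.78, 4.80 and 4.93 in WT. It was at 7.70, 6.59 and 6.59 in β-catΔEx3 and at 7.76, 7.54, 7.92 and 6.67 in β-catΔEx3:Myc. No mutant array came near WT, whose SD was 0.07, and the mutant arrays spread over more than 1 log2 unit among themselves. Cth was 4.32-fold higher in β-catΔEx3 (2.11 ± 0.33, adjusted p = 0.000977) and 6.17-fold higher in β-catΔEx3:Myc (2.62 ± 0.31, adjusted p = 0.000144). With slide as a block it stayed called in β-catΔEx3:Myc (1.88, adjusted p = 0.0458) and not in β-catΔEx3 (1.52, adjusted p = 0.0786). Its other probe gave 2.05 and 2.55. The log2 difference between Cth and Cbs within an array, again with a probe offset, went from -2.88 to -2.69 in WT to between 0.18 and 0.71 in β-catΔEx3 and between 0.00 and 1.57 in β-catΔEx3:Myc.

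**Figure D2:**
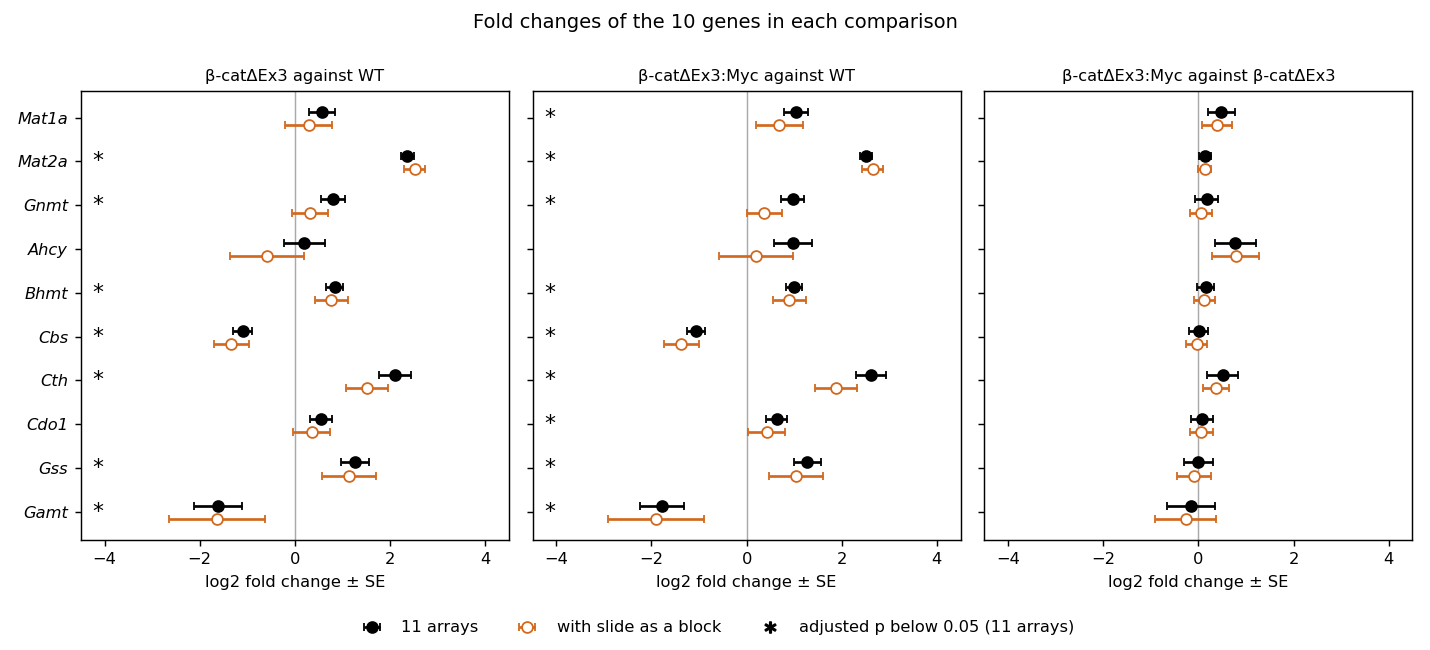
Log2 fold change ± SE of each gene in the 3 comparisons, over all 11 arrays (filled) and with slide as a block (open), with an asterisk for an adjusted p below 0.05 over 11 arrays. Mat2a and Cth stand farthest to the right against WT, Cbs and Gamt lie to the left, and between the mutant groups no gene carries an asterisk.

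Cysteine is either broken down or built into glutathione. Cdo1, which oxidises cysteine on the way to taurine and sulfate, was at 6.85, 6.79, 7.00 and 6.76 in WT, at 7.91, 7.22 and 7.08 in β-catΔEx3 and at 7.25, 7.94, 7.51 and 7.21 in β-catΔEx3:Myc. The groups did not overlap, but the gap was small. Cdo1 was 1.54-fold higher in β-catΔEx3:Myc (0.63 ± 0.22, adjusted p = 0.0382; 0.42 and adjusted p = 0.515 once blocked by slide), and 0.55 ± 0.23 in β-catΔEx3 was not called (adjusted p = 0.0875). The call in β-catΔEx3:Myc was lost without any 1 of the 4 WT arrays (adjusted p = 0.0728, 0.0849, 0.0541 and 0.0792 for replicates 1 to 4), without β-catΔEx3:Myc replicate 2 (0.104) or 3 (0.075), and under 6 other settings, where quantile normalization gave 0.31 (adjusted p = 0.185).

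Gss, which adds glycine in the last step of glutathione synthesis, was at 3.52, 3.03, 2.83 and 3.15 in WT, at 4.75, 3.80 and 4.66 in β-catΔEx3 and at 4.82, 4.27, 4.73 and 3.82 in β-catΔEx3:Myc. All mutant arrays lay above WT, with β-catΔEx3 replicate 2 and β-catΔEx3:Myc replicate 4 the closest to it. Gss was 2.41-fold higher in β-catΔEx3 (1.27 ± 0.30, adjusted p = 0.00831; 1.14 and adjusted p = 0.244 once blocked by slide) and 2.42-fold higher in β-catΔEx3:Myc (1.28 ± 0.28, adjusted p = 0.00446; 1.04 and adjusted p = 0.277 with the block).

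Within slide 4, the 1 array of each group gave differences from WT of the same sign as the full comparison for all 10 genes in β-catΔEx3:Myc, and for all but Ahcy (-0.99) in β-catΔEx3. For β-catΔEx3 and β-catΔEx3:Myc they were 2.50 and 2.67 for Mat2a, 1.66 and 1.74 for Cth, -1.55 and -1.15 for Cbs, and -2.16 and -1.37 for Gamt. For Gss they were 1.51 and 0.67, and for Bhmt 0.51 and 1.16. Gnmt differed by 0.13 and 0.56 there, Mat1a by 0.12 and 0.86, and Cdo1 by 0.32 and 0.45. For these genes and for Cth (2.11 and 2.62 over all arrays) the values were below those over all arrays in both groups. So were Bhmt in β-catΔEx3, and Gss, Ahcy and the fall of Gamt in β-catΔEx3:Myc. Mat2a and the fall of Cbs were larger there in both groups.

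The comparison of the mutant groups asks what Myc adds to mutant β-catenin. Myc itself was not called between them (1.87 on the log2 scale, 3.65-fold, adjusted p = 0.395), although their arrays did not overlap. None of the 10 genes was called between β-catΔEx3:Myc and β-catΔEx3, where 0.108% of all items were higher and 0.144% lower, and for none did the groups fail to overlap (8.1% of all items). The limma p before adjustment was above the threshold for all 10 as well. The largest differences were 0.77 for Ahcy (95% interval -0.18 to 1.72, adjusted p = 0.599), 0.51 for Cth (-0.22 to 1.25, adjusted p = 0.668) and 0.48 for Mat1a (-0.14 to 1.10, adjusted p = 0.629). The intervals were narrowest for Mat2a (0.14, from -0.15 to 0.43), Bhmt (0.15, from -0.25 to 0.55) and Cbs (0.01, from -0.44 to 0.46). Gamt, at -0.16, had the widest (-1.29 to 0.96), so a 2-fold fall lay within it. The intervals of Gnmt (0.17, from -0.39 to 0.73), Cdo1 (0.07, from -0.44 to 0.59) and Gss (0.00, from -0.67 to 0.68) lay between.

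Among the 7 mutant arrays several of the genes varied together. β-catΔEx3 replicate 3 was the lowest for Mat1a, Gnmt, Ahcy, Bhmt and Cdo1, and β-catΔEx3:Myc replicate 2 was the highest for Mat1a, Ahcy and Cdo1. After the group means were removed, Mat1a correlated over the 11 arrays with Cdo1 at r = 0.91, with Cbs at 0.87, with Gnmt at 0.83 and with Ahcy at 0.82. Cth went with Gss at 0.72, whereas Mat2a had r between -0.40 and 0.28 with each of the other 9. These values describe arrays that share their scaling, slide and liver sample.

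The periportal hepatocyte markers, the zone next to the portal vein, varied among the same arrays. The sum of these 10 markers was 1217 to 1728 in WT, 1772, 737 and 545 in β-catΔEx3 replicates 1, 2 and 3, and 1214, 2238, 1825 and 1254 in β-catΔEx3:Myc replicates 1 to 4. In β-catΔEx3, 6 of the 10 were called lower and 1 higher than in WT, and in β-catΔEx3:Myc 5 were lower and 2 higher. Within β-catΔEx3, replicate 1 was thus highest in that sum and also in Mat1a, Mat2a, Gnmt, Ahcy, Cbs, Cth, Cdo1 and Gss, that is in all but Bhmt and Gamt. Within β-catΔEx3:Myc, replicate 2 was highest in the sum and in Mat1a, Ahcy and Cdo1, but lowest in Mat2a and Gamt. There Mat2a and Gss were highest in replicate 1, which was lowest in the sum. Gnmt, Cbs and Cth were highest in replicate 3, and Bhmt and Gamt in replicate 4. The sum adds linear signals, so bright markers weigh more in it. Ass1, 1 of the 10, was at 8.03 to 8.42 in WT, 8.32 to 9.82 in β-catΔEx3 and 9.38 to 10.01 in β-catΔEx3:Myc. The part of the periportal markers in the levels of the members was not tested.

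**Figure D3:**
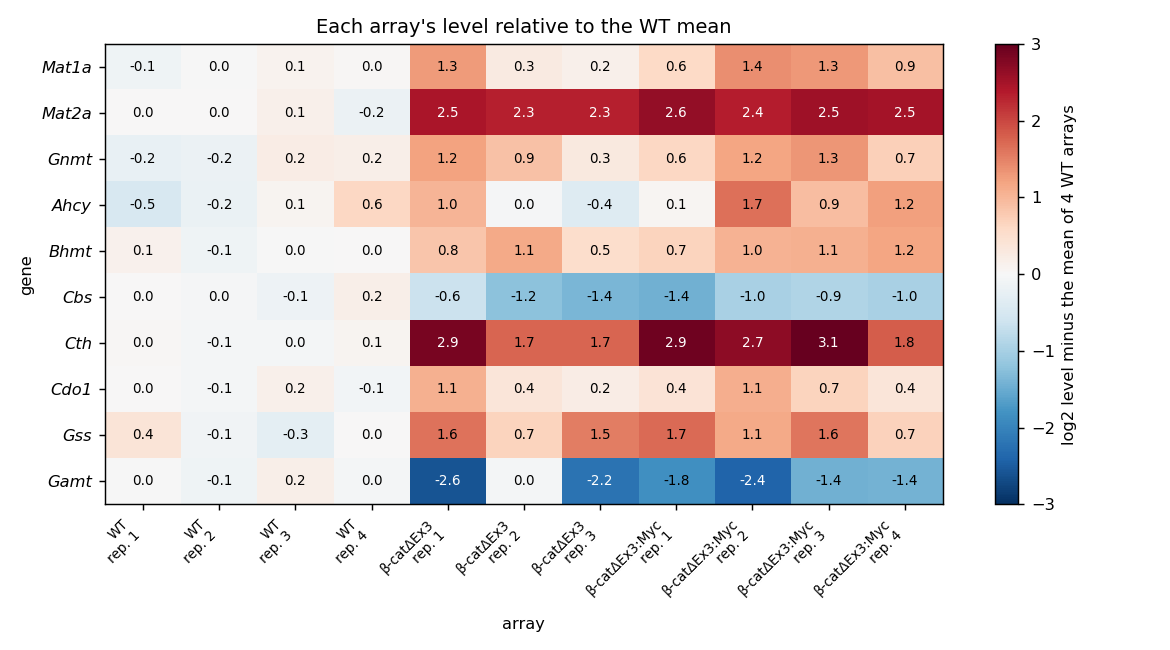
Each gene (rows) on each array (columns) as its log2 level minus the mean of the 4 WT arrays, red for higher and blue for lower. Mat2a and Cth are red and Cbs is blue on all 7 mutant arrays, and Gamt of β-catΔEx3 replicate 2 is near 0.

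The genes most like a member over the 11 arrays, among 11855 with a symbol and above background throughout, were taken by Pearson correlation of their levels, as a description. For Cth they were Nsf (r = 0.987), Mcrip2 (0.984) and Vegfd (0.983), and for Cbs they included Aph1a (0.971) and Masp1 (0.968). For Mat1a they were Ass1 (0.972), an enzyme of the urea cycle and a member of the periportal list, Dbt (0.969) and Cdip1 (0.957). For Gnmt they were Mtrf1l (0.972), Rhbdd2 (0.970) and Hpd (0.965), an enzyme of tyrosine breakdown. These r values include the step between WT and mutant arrays. With the group means removed, r of the genes named here ran from 0.81 (Aph1a) to 0.95 (Masp1 and Dbt).

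The other genes around these enzymes were read in 8 lists. Beside their counts stand the 21.6% higher and 15.5% lower of all items in β-catΔEx3, and the 25.3% and 17.1% in β-catΔEx3:Myc. None of the 108 genes measured in the lists was called between the mutant groups by limma. An unadjusted limma p below 0.05 was found there for 13 of them, and the share over all items is not given here. The 19 measured genes of glutathione synthesis and turnover had the highest median, 0.94 in β-catΔEx3 and 0.58 in β-catΔEx3:Myc, with 11 higher and 2 lower in β-catΔEx3 and 10 higher and 2 lower in β-catΔEx3:Myc. With slide as a block, 5 and 2 of the 19 were called.

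Gclc, the catalytic subunit of the rate-limiting ligase that joins cysteine to glutamate, was at 6.22, 5.29, 4.95 and 5.95 in WT. It was at 8.66, 7.58 and 9.17 in β-catΔEx3 and at 8.14, 7.93, 8.60 and 6.64 in β-catΔEx3:Myc, above WT on every mutant array. The rise was 7.30-fold (adjusted p = 0.00187; 0.144 with slide as a block) and 4.67-fold (adjusted p = 0.00374; 0.324 with the block). Abcc4, an exporter that carries glutathione conjugates, was 210-fold and 120-fold higher (adjusted p = 8.92e-06 and 6.79e-06), or 108-fold and 62.9-fold after normexp background correction. Ggt1, which splits extracellular glutathione, was above background on no WT array and on all 7 mutant arrays. It thus passed the filter on background only through the mutant arrays, where it is high. On the processed signal, Ggt1 was at least 15.8-fold higher in β-catΔEx3 and at least 29.9-fold higher in β-catΔEx3:Myc. Such a bound sets the mutant mean against the dimmest processed signal that counted as above background on the WT arrays. The bound does not apply to the normexp values, because an offset of 50 added there to every spot makes folds of dim genes smaller. Under normexp the fitted fold of Ggt1 was 4.67 and 8.04.

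Carriers of cystine, cysteine and methionine moved both ways, with 5 higher and 4 lower of 15 measured in β-catΔEx3 and 7 higher and 5 lower in β-catΔEx3:Myc (7 and 5 called in all with slide as a block). Slc7a11, the cystine importer of the plasma membrane, was above background on no WT array, on all 3 β-catΔEx3 arrays and on 3 of 4 β-catΔEx3:Myc arrays. It thus passed the filter on background only through the mutant arrays, where it is high, so its adjusted p values add no support. It was at 2.29, 1.34 and 2.40 in β-catΔEx3 and at 0.90, 0.85, 2.22 and -4.34 in β-catΔEx3:Myc, so replicate 4 stood apart. On the processed signal it was at least 95.5-fold higher in β-catΔEx3 (adjusted p = 0.000569). In β-catΔEx3:Myc it was at least 22.3-fold higher (adjusted p = 0.00124, or 0.165 with slide as a block). After normexp the fitted folds of Slc7a11 were 21.4 and 7.47, below these bounds. Its log2 difference fitted to the processed signal in β-catΔEx3:Myc, 6.46, was 7.87 without replicate 4 and 5.69 without replicate 3. Slc1a1, a carrier of glutamate and cysteine, was likewise above background on no WT array. Its place among the tested genes also came only from the mutant arrays, so the same limit holds. On the processed signal it was at least 10.7-fold and 4.91-fold higher (adjusted p = 0.00156 and 0.00289, or 0.0995 and 0.279 with the block). After normexp its fitted folds were 3.17 and 2.33, also below the bounds. The difference of 4.18 fitted to the processed signal in β-catΔEx3:Myc was 5.0 without replicate 4 and 3.44 without replicate 1. Slc3a1, the partner subunit of a cystine carrier best known in kidney, was 29.6-fold lower in β-catΔEx3 and 14.4-fold lower in β-catΔEx3:Myc (adjusted p = 0.000113 and 0.000193), or 9.47-fold and 7.30-fold after normexp. Slc7a9 of the same list was higher, by 2.53 and 2.03 on the log2 scale (adjusted p = 0.00288 and 0.00483, value with the block not given here).

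Of 11 genes of homocysteine remethylation and betaine supply, 4 were higher and 1 lower in β-catΔEx3 and 5 higher and 1 lower in β-catΔEx3:Myc, with 1 called in each with slide as a block. Dmgdh, which takes up the dimethylglycine that Bhmt leaves, was 2.15-fold and 2.22-fold higher (adjusted p = 0.000322 and 0.000116), also with slide as a block (adjusted p = 0.0445 and 0.0339). Pipox, which oxidises sarcosine and pipecolate in peroxisomes, was 3.06-fold and 2.22-fold lower (adjusted p = 0.00143 and 0.00442; 0.0722 and 0.143 with the block). Of the 3 relatives of Mat and Ahcy, 2 were higher in β-catΔEx3 and 1 in β-catΔEx3:Myc, with medians of 0.54 and 0.34. With the block, limma called 0 of the 3 in either group, and 1 and 0 had an unadjusted p below 0.05. Ahcyl2, a relative of Ahcy, was 1.98-fold higher in β-catΔEx3 (adjusted p = 0.00251; 0.131 with the block) and at 0.27 on the log2 scale in β-catΔEx3:Myc (adjusted p = 0.241, or 0.43 with adjusted p = 0.0227 without β-catΔEx3:Myc replicate 4).

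Among 12 measured genes of other SAM use and creatine synthesis, 3 were higher and 2 lower in β-catΔEx3 and 3 higher and 3 lower in β-catΔEx3:Myc, with 2 called in each with slide as a block. Gatm, which makes the guanidinoacetate that Gamt methylates, was at 0.30, 0.57, 0.25 and -0.15 in WT, at -2.24, -1.51 and -1.59 in β-catΔEx3 and at -2.46, -2.85, -3.31 and -2.66 in β-catΔEx3:Myc. It was 4.06-fold and 8.34-fold lower (adjusted p = 0.000334 and 1.39e-05), also with slide as a block (adjusted p = 0.0475 and 0.0139), but 2.68-fold and 3.73-fold lower after normexp. The mean RNA signals of both creatine synthesis genes were thus lower than in WT. The Gamt calls were lost with slide as a block, and the one in β-catΔEx3 in other runs as well. β-catΔEx3 replicate 2, at the WT level for Gamt, was not at the WT level for Gatm.

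Nnmt, which methylates nicotinamide, was 9.22-fold and 16.8-fold higher (adjusted p = 0.00796 and 0.00121). Its WT arrays ranged from -2.23 to 0.93, and with slide as a block its differences were 1.24 (adjusted p = 0.455) and 2.55 (adjusted p = 0.145). Inmt, another small-molecule methyltransferase, was 5.19-fold and 3.73-fold lower (adjusted p = 0.000772 and 0.00129; 0.0692 and 0.0948 with the block).

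**Figure D4:**
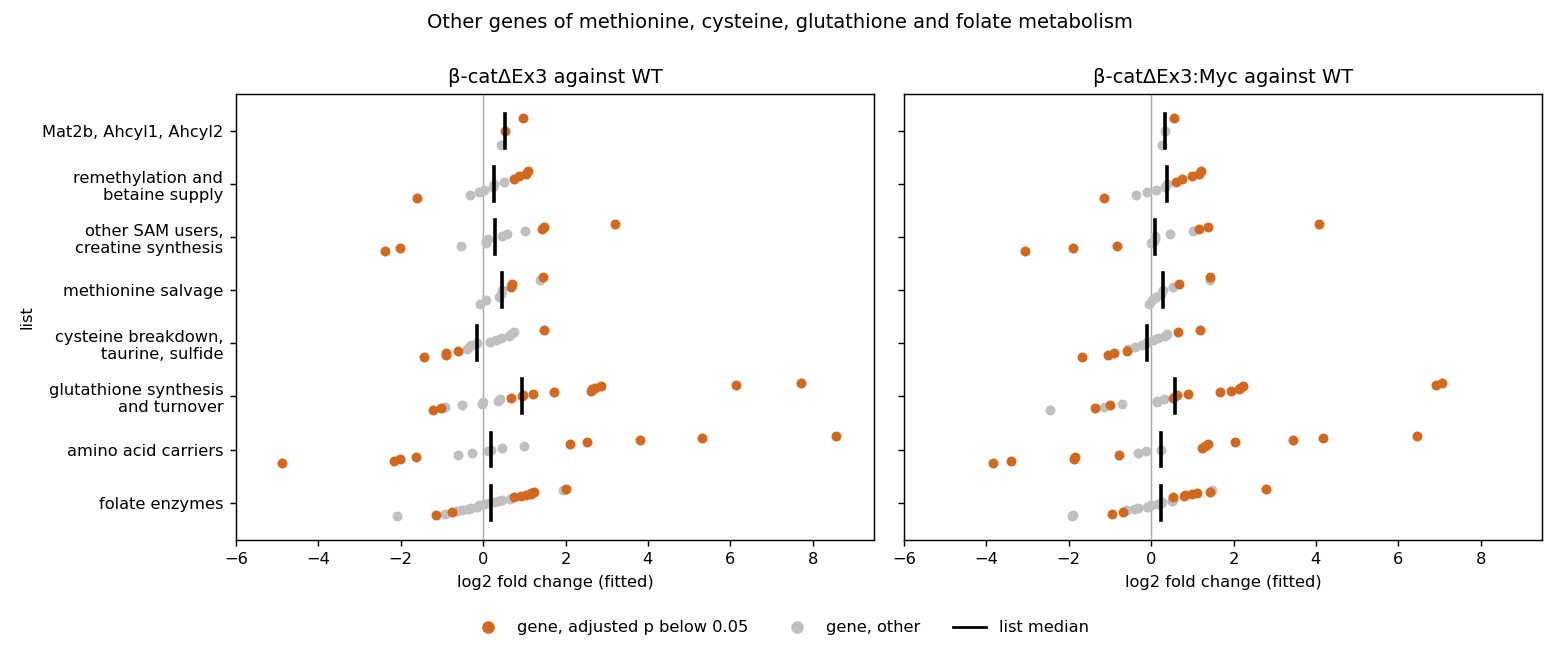
Fitted log2 fold change against WT (x axis) of each measured gene in the 8 lists (rows), with called genes in orange and the list median as a bar. The glutathione list has its median farthest to the right in both panels (0.94 and 0.58), and the carriers spread widest to both sides. For Ggt1, Slc7a11 and Slc1a1, not above background in WT, the fitted values are not bounds.

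In methionine salvage, which recovers methionine from polyamine synthesis, 3 of 9 genes were higher in β-catΔEx3 and 2 in β-catΔEx3:Myc, and none was lower, with 1 called in each with slide as a block. Srm, spermidine synthase, was 2.76-fold and 2.70-fold higher (adjusted p = 0.000504 and 0.00025), also with slide as a block (adjusted p = 0.0315 and 0.0302). Of 24 measured folate enzymes and carriers, 7 were higher and 2 lower in each mutant group, and 2 in each were called with slide as a block. Mthfd1l, a mitochondrial formate-producing enzyme, was 4.02-fold and 6.85-fold higher (adjusted p = 0.000999 and 7.93e-05), also with the block (0.0487 and 0.0206).

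Of 15 measured genes of cysteine breakdown, taurine and sulfide, 1 was higher and 4 lower in β-catΔEx3, and 2 were higher and 4 lower in β-catΔEx3:Myc. The medians were -0.16 and -0.09, the other 10 and 9 genes were not called, and 1 in each was called with slide as a block. Slc6a6, the taurine importer, was 2.79-fold and 2.28-fold higher (adjusted p = 0.00855 and 0.0143; 0.259 and 0.453 once blocked by slide). Sqor, which oxidises sulfide in mitochondria, was 2.06-fold lower in β-catΔEx3:Myc (adjusted p = 0.0151; 0.146 with the block) and at -0.16 on the log2 scale in β-catΔEx3 (adjusted p = 0.717).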

How the data were processed

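Single-colour Agilent 8x60K arrays of 11 mouse liver samples were used as deposited. Per the file headers, the authors' scanner files hold the processed signal, an intensity with background subtracted by Agilent Feature Extraction (version 10.7.1.1 in the submitters' processing notes), along with median signals and flags. The authors also deposited a table of log2 values, with a median of 4.51 in every column and the rank order of the scanner values (rank correlation 1.0), whose exact normalization is unknown, used as an alternative.

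The log2 of the processed signals was taken, outlier spots were left out (137 to 209 an array) and the log2 values of a probe's spots were averaged. The log2 of each array's 75th percentile over non-control spots was then subtracted. Of 55681 probes, 26582 carried an accession with a RefSeq mouse symbol. A probe was tested if 3 arrays or more flagged it as well above background (29697 probes), and the probe with the highest mean over all arrays stood for its gene. The array design is on another build than the RefSeq table (GRCm38.p6), so no probe positions are given, and the upstream windows carry the RefSeq table's own coordinates.

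A 3-group model was fitted with limma 3.58.1 (R 4.3.3, moderated test, Benjamini-Hochberg over 22283 items, two-sided, threshold 0.05), after the code was tested on simulated data. The number of arrays limits the precision, with 8 residual degrees of freedom. Alternatives were other scalings, background correction with normexp (offset 50, then quantile normalization), filters, probe averaging, slide as a block, and each array left out. The members, lists and tests were chosen with earlier results of these data known. All members are described. Of each list, genes are named from the up to 3 called with the largest fold change, and Slc7a9 is named beside Slc3a1. Of the genes most like Cbs, 1 is not reported here.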

Additional observations from a re-analysis of the deposited data

Results flagged for a closer look

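Within groups of 4 arrays, 2 of 66 sets of values had an array far from the others by Dixon's test, and chance flags about 1 in 20 groups. Cbs of β-catΔEx3:Myc replicate 1 was at 6.20, the lowest of its group, with the next array at 6.67. Tstd1, a thiosulfate sulfurtransferase relative of the cysteine breakdown list, was at 3.93 in WT replicate 4, with the next WT array at 5.23.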

How the results depend on the processing

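With slide as a fixed block, 1 gene was called in β-catΔEx3 against WT (7 without it) and 2 in β-catΔEx3:Myc against WT (9 without it), and the cause was not tested, though that fit rests on WT replicate 4. Leaving out 1 array gave 5 to 7 and 8 to 10 called genes, and the other settings gave 5 to 7 and 8 to 9. No gene was called between the mutant groups under any setting. Ahcy in β-catΔEx3 turned to -0.58 with slide as a block, and leaving out 1 array gave -0.21 to 0.49.

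Signs turned for differences between β-catΔEx3:Myc and β-catΔEx3 that were not called. Cbs was at -0.07 under quantile normalization and in the deposited table, at -0.08 after normexp and at -0.04 with slide as a block. Cdo1 was at -0.01 under quantile normalization and in the deposited table and at -0.0028 after normexp. Gss was at -0.05 after normexp, -0.10 with slide as a fixed block and -0.0048 as a random block. Leaving out 1 array gave -0.13 to 0.23 for Cbs, -0.09 to 0.32 for Cdo1, -0.30 to 0.20 for Gss, -0.08 to 0.37 for Gnmt, -0.0036 to 0.30 for Bhmt and -0.65 to 0.62 for Gamt. The cause was not tested. No paired analysis was possible because the labels give no replicate numbers shared between groups. Folds of dim genes depend on the background correction and on the offset of 50 added with normexp, also for Abcc4, Slc3a1 and Gatm. After normexp the fitted fold in β-catΔEx3 and β-catΔEx3:Myc was 4.67 and 8.04 for Ggt1. It was 21.4 and 7.47 for Slc7a11, and 3.17 and 2.33 for Slc1a1. The part of the offset in these values was not tested.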
